A study of Mus musculus and Mus spretus with 72 samples.

Results

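Testis RNA of Mus musculus musculus (mus) was compared with testis RNA of M. m. domesticus (dom), on the 6 arrays whose titles name each of these sub-species, 12 of the 72 arrays of the study. Each array had 2 channels and set total RNA from 1 male, roughly 12 weeks old, against testis RNA pooled from 9 C57BL6 mice, a laboratory strain. The same pool stood on both sides of the comparison, so a difference between mus and dom is a difference of 2 log ratios. The other 60 arrays hold testis of 3 more groups, and brain and liver/kidney. By title the 3 groups are ssp (6 testis arrays), cas (3) and spretus (3), the last of another species, Mus spretus. Standard errors, intervals and p-values of single probes rest on a spread estimated over all 5 testis groups together. The labels name no strain, locality or breeding history for the mice and do not say that brain, liver/kidney and testis arrays of 1 number come from 1 animal. Values are taken as log2 of sample over pool. Neither the base nor the direction is stated in the sources used here, and all signs would turn together if the ratio ran the other way.

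These sub-species meet in a hybrid zone in Europe, and some crosses between them give sterile males, so the testis is a tissue in which their divergence is much studied. The adult testis is mostly germ cells: spermatogonia divide, spermatocytes pass through meiosis, and spermatids pack their DNA with transition proteins and protamines while building the flagellum and acrosome. Sertoli cells nurse them and Leydig cells make testosterone. A whole-testis array reads the sum of these cells, so fewer cells of a type and less RNA per cell cannot be told apart. The comparison asks how far testis RNA levels differ between the sub-species.

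Between 43521 and 44716 of the 46128 spots carried a value on these arrays. Duplicate spots of a probe correlated within an array with r from 0.273 (mus 03) to 0.604 (dom 03). Arrays of mus 07 and mus 08 lack values at other spots than the rest do (the second set of arrays below). The other 4 mus and 5 dom arrays form the first set. Array dom 01 resembles neither closely, but its missing spots correlated more with those of the second set (mean r 0.101) than of the first (0.00375), and its values correlated with those of mus 07 and mus 08 at a mean r of 0.333, against 0.0404 with the other dom arrays. The spread of log ratios over probes (median absolute deviation) ran from 0.115 to 0.208 on dom arrays and from 0.046 (mus 03) to 0.166 (mus 07) on mus arrays. Its mean was 0.160 ± 0.0375 (SD, n = 6) in dom and 0.0976 ± 0.0413 in mus (two-sided exact permutation test over 924 assignments, p = 0.026, 0.0519 after Benjamini-Hochberg adjustment over both array measures tested). A probe's SD between animals was larger in dom than in mus for 71.1% of probes.

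No probe passed the adjusted test between mus and dom in testis. Of 20754 probes tested, limma called 0 at a Benjamini-Hochberg adjusted p under 0.05 (percent called 0), with a smallest adjusted p of 0.406, while 1367 probes (6.59%) had an unadjusted p under 0.05. Of these, 605 were higher and 762 lower in mus. Without dom 13 limma called 6 probes, among them Hmga2, Edem3 and Vsig10l, and without any other single array it called 0. At an unadjusted p under 0.001 there were 26 probes, 20 of them lower in mus. On 84 of the 20245 probes with all 12 values (0.415%) the 6 mus arrays did not overlap the 6 dom arrays, 47 with mus above and 37 with dom above. The count of calls depended on how the arrays were scaled: quantile normalisation called 8 probes, all lower in mus, and giving all arrays a common spread called 28, of which 22 were lower. Within the first set of arrays alone 4 probes were called (0.0193% of 20724), all higher in mus.

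The arrays also bound how large a difference could be. On the log2 scale, differences had a median standard error of 0.0875, and the 95% interval reached a median of 0.18 to either side, a 1.13-fold difference. That interval lay wholly inside 1.2-fold for 52.7% of probes, inside 1.5-fold for 94.9% and inside 2-fold for 99.5%. For 108 probes it reached 2-fold or more. With intervals widened to hold for all probes together (Bonferroni level), 44.1% of probes stayed inside 1.5-fold and 85.3% inside 2-fold, and the median half-width was 0.55, or 1.46-fold. The estimates themselves were mostly small. The median absolute difference was 0.0655, 1045 probes were estimated at 1.2-fold or more, 56 at 1.5-fold or more and 11 at 2-fold or more. These bounds apply to log ratios of the array, and the size of a ratio on it relative to the true ratio is not known. No spot intensities were used. Probes for RNA scarce or absent in testis could therefore not be set aside and are counted in these shares.

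**Figure D1:**
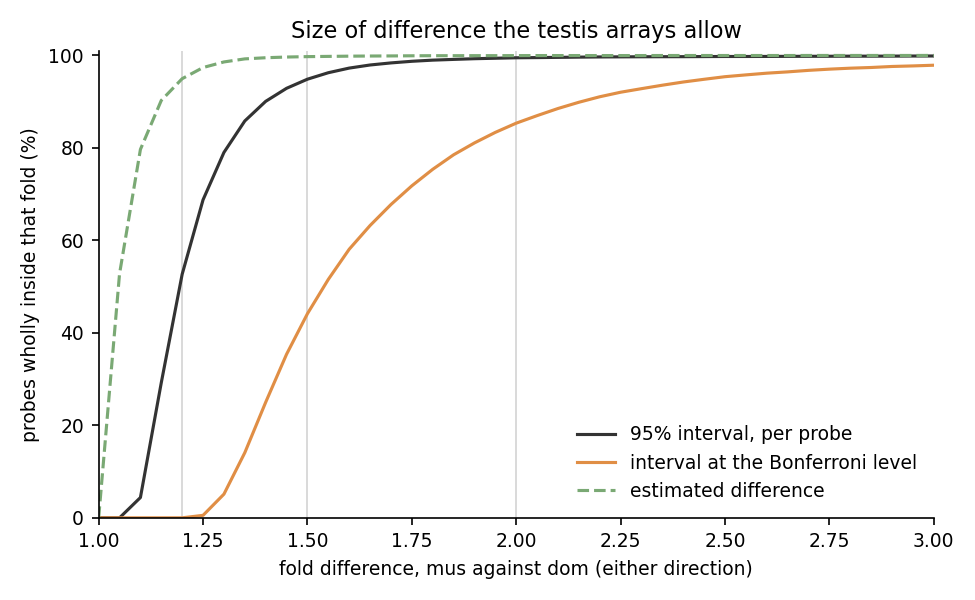
Share of the 20754 testis probes (vertical axis, percent) whose estimated difference between mus and dom (dashed), 95% interval (black) or Bonferroni-level interval (orange) lay wholly inside a given fold in either direction (horizontal axis, linear). The black curve is at 52.7% at 1.2-fold and 94.9% at 1.5-fold, and the orange one at 44.1% at 1.5-fold.

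The probe with the smallest p was that of Hmga2, a chromatin architectural protein of embryonic and proliferating cells whose loss makes mice small (rank 1 of 20754). Log ratios to the pool on dom arrays ran from -0.46 to 0.43 with a median of -0.08, and on mus arrays from -1.18 to -0.48 with a median of -0.73. All 6 mus arrays were below all 6 dom arrays, and both duplicate spots gave the same picture on dom 06, the highest array (0.398 and 0.462). The difference was -0.74 ± 0.14 (SE; limma adjusted p = 0.406; 95% interval -1.04 to -0.44). It was -0.83 within the first set of arrays and -0.43 between mus 07 and mus 08 and dom 01. Hmga2 was called without dom 13 (adjusted p = 0.0464) and with a common spread (adjusted p = 0.0119), and over all alternatives its adjusted p ran from 0.0119 to 0.985.

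Hmga2 gave the same direction in the other tissues, on arrays that had no part in the testis ranking. Their titles carry the same replicate numbers, and the labels do not say whether the mice were the same. The tissues may therefore not be independent of each other. In brain, mus values ran from -1.28 to -0.648 around a median of -1.05, and dom values from -0.595 to 0.876 around -0.378. The groups did not overlap there either, and the difference of -0.78 ± 0.17 was called (limma adjusted p = 0.0464). In liver/kidney, mus values ran from -1.87 to -1.21 and dom values from -0.788 to -0.385, a difference of -0.94 ± 0.15 (adjusted p = 0.00174). For the brain array of mus 08 the title and the channel label disagree on the sub-species, and without it the brain difference was -0.77 ± 0.18 (adjusted p = 0.0753). The testis difference and the brain one differed by 0.04 (adjusted p = 1.00), and the testis and liver/kidney ones by 0.19 ± 0.22 (adjusted p = 0.982). In testis the dom arrays lay on both sides of the pool. In brain only dom 01 (0.876) was above it, and in liver/kidney all arrays of both sub-species were below it.

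**Figure D2:**
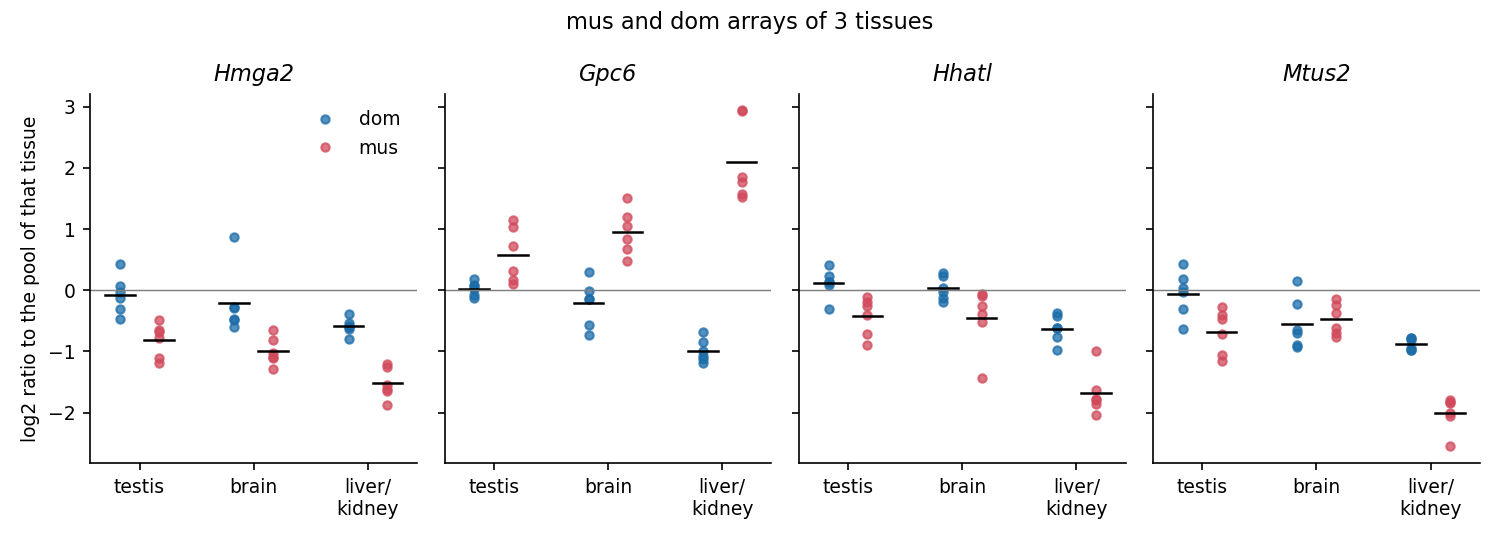
Log2 ratio to the pool of the same tissue (vertical axis) for 4 genes on the 6 dom (blue) and 6 mus (red) arrays of testis, brain and liver/kidney. Points are arrays and bars are group means. For Hmga2 all mus arrays lie below all dom arrays in each tissue, and for Gpc6 the gap in liver/kidney is wider than in testis.

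After Hmga2, the 8 named genes with the smallest p that were lower in mus included Txn1 and Qsox1. Txn1, the cytosolic thioredoxin that reduces disulfides, lay between -0.12 and 0.05 on dom arrays (median 0.02) and between -0.51 and -0.15 on mus arrays (median -0.21). Dom arrays sat at the level of the pool and every mus array was below all of them, with the lowest on mus 07 and mus 08. The difference was -0.28 ± 0.06 (adjusted p = 0.406), -0.18 within the first set and -0.51 for mus 07 and mus 08 against the single array dom 01. It was the gene with the smallest adjusted p under quantile normalisation (0.00216). Qsox1, an oxidase that makes disulfides in secreted proteins, ran from -0.11 to 0.31 in dom and from -0.55 to -0.13 in mus, again with no overlap, and differed by -0.36 ± 0.08 (adjusted p = 0.678; 0.0412 with quantile normalisation).

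Hspa1a, Edem3 and Mrto4 were also among these 8, while Noc2l is named for its call with quantile normalisation. Hspa1a, the stress-inducible Hsp70, had a median of 0.16 in dom (-0.16 to 0.41) and -0.32 in mus (-0.76 to 0.13), a difference of -0.51 ± 0.12 with overlap through mus 07 alone on the mus side. Edem3, which trims glycans of misfolded proteins in the endoplasmic reticulum, had a median of 0.08 in dom (-0.48 to 0.59) and -0.56 in mus (-0.95 to -0.23), and differed by -0.67 ± 0.15. On dom 13 it was at -0.48, inside the mus range, and without that array it was called (adjusted p = 0.0464). Mrto4, a factor of large ribosomal subunit assembly, had a median of 0.02 in dom (-0.38 to 0.36) and -0.51 in mus (-0.79 to -0.31), and Noc2l, a nucleolar protein that inhibits histone acetyltransferases, -0.03 (-0.16 to 0.03) against -0.37 (-0.83 to -0.22). Noc2l did not overlap between groups, and the differences were -0.47 ± 0.12 and -0.43 ± 0.12. Both passed with quantile normalisation (adjusted p = 0.0412 and 0.0464) and neither on the values as centred (0.678 each). Like Hmga2, Mrto4 was also called lower in mus in liver/kidney (-0.63 ± 0.14, limma adjusted p = 0.0316). In brain it differed by -0.24 ± 0.17 and was not called (limma adjusted p = 0.76).

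The transcription factor Tfcp2l1 had a dom median of 0.32 (0.05 to 0.92) and a mus median of -0.11 (-0.62 to 0.25), and Vsig10l, an immunoglobulin-domain membrane protein, 0.12 (-0.41 to 0.73) against -0.47 (-0.63 to -0.17). In both it was array dom 03 that stood highest, and dom 03 was the highest dom array for 4 of these 8 genes, dom 06 for 3 and dom 10 for 1. Larger differences with larger errors were those of the potassium channel Kcna3 (-0.65 ± 0.18) and of Mtus2, a microtubule-binding protein (-0.62 ± 0.16), for both of which dom 13 was the lowest dom array (-0.90 and -0.63) and lay inside the mus range. For Mtus2 dom 01, at -0.30, did so too. Among dom arrays, Hmga2, Kcna3, Mtus2 and Mrto4 were each highest on dom 06 (0.36 to 0.48) and lowest on dom 13 (-0.90 to -0.38). These genes thus moved alike between dom arrays and may not be separate results, which was not tested.

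**Figure D3:**
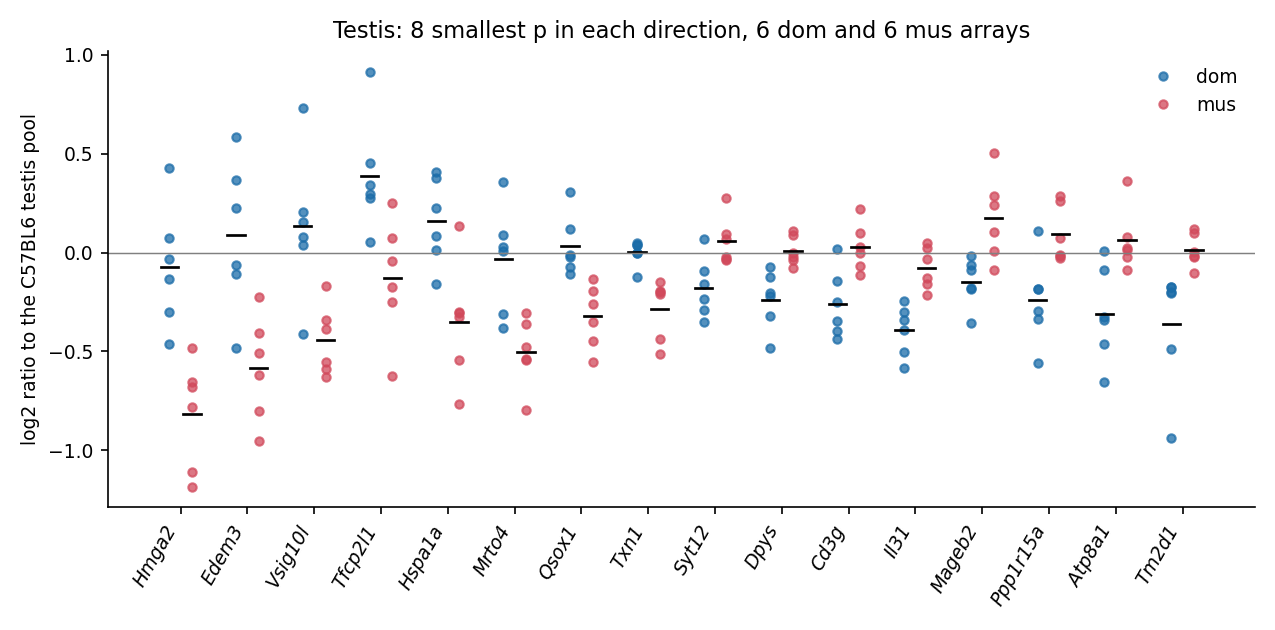
Log2 ratio to the C57BL6 testis pool (vertical axis) on each dom (blue) and mus (red) array for the 8 named genes with the smallest p in each direction. Points are arrays and black bars group means. Hmga2, Qsox1 and Txn1 on the left and Il31 and Tm2d1 on the right show no overlap between the groups. The genes were ranked on these same arrays, so this adds no support. None of the 16 differences passed the adjusted threshold.

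The 8 named genes with the smallest p that were higher in mus differed by 0.23 to 0.38, and for all 8 the mus median lay between -0.08 and 0.17, at or near the pool, with the dom median below it. Atp8a1, a flippase that moves phosphatidylserine to the inner membrane leaflet, had a dom median of -0.33 (-0.66 to 0.01) and a mus median of 0.02 (-0.09 to 0.36), and differed by 0.37 ± 0.09 (adjusted p = 0.678). Ppp1r15a, which directs a phosphatase to eIF2α to end the stress block on translation, had a median of -0.24 in dom (-0.56 to 0.11) and 0.03 in mus (-0.03 to 0.29). Array dom 01 alone, at 0.11, lay inside the mus range.

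In 2 of these genes the groups did not overlap, against 0.415% of all probes with 12 values. The genes were ranked by p on these same arrays, so the lack of overlap adds no support. Tm2d1, a membrane protein that binds amyloid beta, ran from -0.94 to -0.17 in dom and from -0.10 to 0.12 in mus (0.38 ± 0.10), with dom 03 lowest. The cytokine Il31 ran from -0.58 to -0.24 in dom and from -0.22 to 0.05 in mus (0.32 ± 0.08). Mageb2, an X-linked gene of the testis-expressed MAGE family, differed by 0.32 ± 0.09, the pyrimidine-degrading enzyme Dpys by 0.25 ± 0.07 and the synaptotagmin Syt12 by 0.23 ± 0.07, all with an adjusted p of 0.678 or 0.679.

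The largest differences were those of 11 probes estimated at 2-fold or more. All 11 were higher in mus, 10 had an unadjusted p under 0.05, and they shared 1 profile over the arrays. Among those that carry the name of a described gene were Acta1, the actin of skeletal muscle (1.91 ± 0.59), the ribosomal protein gene Rpl41 (1.67 ± 0.50), Rab3gap1, a regulator of Rab GTPases (1.57 ± 0.56), and Snrpc, a protein of the U1 splicing particle (1.41 ± 0.44). Acta1 had a dom median of 0.27, with -2.71 on dom 03 and 2.64 on dom 01, and mus values from 1.21 to 2.53. For Acta1 the dom arrays were thus spread over more than the whole mus range. For Rpl41 and Snrpc the highest mus array (2.96 and 2.45) was above the highest dom array (2.35 and 2.20). Every mus array was above 0 on all 11 probes.

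On all 11 probes dom 01 was the highest dom array and dom 03 the lowest of the 12. The mean over the 11 probes was 2.42 on dom 01, -1.67 on dom 03, -0.27 on dom 05, 0.68 on dom 06, 0.38 on dom 10 and 0.99 on dom 13. On mus arrays it lay between 1.3 (mus 03) and 2.24 (mus 02). Correlations between pairs of these probes over the 12 arrays ran from 0.846 to 0.991, given as a description of probes chosen for their size. Without dom 03 the 11 differences ran from 0.57 to 1.40, and 5 stayed at 2-fold or more. Without dom 01 they ran from 1.26 to 2.42. Between mus 07 and mus 08 and dom 01 the sign turned: Acta1 differed by -0.98, Rpl41 by -0.74, Rab3gap1 by -0.79 and Snrpc by -0.60. The same probes differed by 0.53 to 1.61 in brain and by -0.26 to 0.23 in liver/kidney. None was called in either tissue (limma adjusted p from 0.107 to 0.657 in brain). For Acta1, Rpl41, Rab3gap1 and Snrpc the gap between testis and liver/kidney did not pass the test either (limma adjusted p from 0.541 to 0.832).

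**Figure D4:**
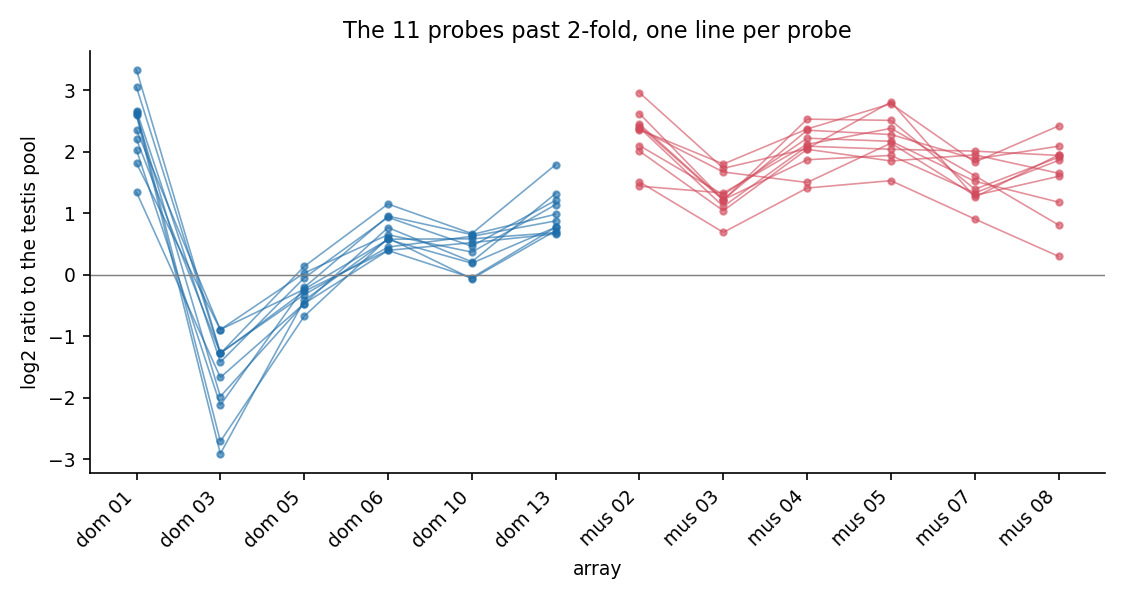
Log2 ratio to the testis pool (vertical axis) on each of the 12 arrays (horizontal axis) for the 11 probes estimated at 2-fold or more, with 1 line per probe, dom in blue and mus in red. The lines run together, with dom 01 as high as the mus arrays and dom 03 lowest on every line.

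In a further set of probes the 4 mus arrays of the first set stood apart from mus 07 and mus 08. Smarcd2, a subunit of the SWI/SNF chromatin remodeller, was at 0.74, 0.62, 0.69 and 0.71 on mus 02 to 05, at -0.16 on mus 07 and at 0.09 on mus 08. Dom arrays lay between 0.11 and 0.23 apart from dom 01 at 0.81. Within the first set Smarcd2 differed by 0.51 ± 0.05 and was called (limma adjusted p = 0.0363), over all arrays by 0.17 ± 0.17 (0.879), and between mus 07 and mus 08 and the single array dom 01, where Smarcd2 stood far above the other dom arrays, by -0.84. One probe of the hexokinase gene Hk1 was at 0.77, 1.02, 0.72 and 0.60 on those 4 mus arrays, at 0.01 on mus 07 and at 0.20 on mus 08, with dom arrays between -0.05 and 0.21. The other probes of Hk1 differed by 0.0535 ± 0.0986 and -0.155 ± 0.0738, so the gene's probes disagree. Animal and array set move together here and cannot be told apart.

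The array gives ratios of cell type markers to the pool. They do not give marker levels, so the tissue label could not be tested by them. Of 25 defining markers of testis, blood and epididymis, 21 had a tested probe and 0 passed the adjusted test. An unadjusted p under 0.05 was found for 3 of the 21, against 6.59% of all probes. These 3 were Prm2 (0.47 ± 0.23) and Odf1, a protein of the outer dense fibres of the sperm tail (0.21 ± 0.10), both higher in mus, and Hspa2, lower in mus. Spermatid markers differed most widely, from -0.11 to 0.47, with 2 of 5 at that level, too few genes to set against the share of all probes. Sertoli markers (Sox9, Wt1, Clu, Rhox5) differed by -0.06 to 0.08, with a second Clu probe at -0.181 ± 0.205, and Leydig markers (Star, Cyp17a1, Insl3, Cyp11a1) by -0.07 to 0.05. Among spermatocyte markers, Sycp1 and Sycp3, proteins of the synaptonemal complex, differed by 0.00 ± 0.08 and 0.06 ± 0.14, Hspa2, a chaperone needed to complete male meiosis, by -0.18 ± 0.08, and Ldhc, the lactate dehydrogenase of germ cells, by -0.16 ± 0.16. The globin gene Hba-a1 differed by -0.16 ± 0.26, and the epididymal genes Lcn5 and Spag11a by 0.08 ± 0.10 and 0.05 ± 0.08.

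Of the 13723 genes tested on the mean of their probes, 0 were called, 396 (2.89%) were higher and 520 (3.79%) lower in mus at an unadjusted p under 0.05, and 95.2% had a 95% interval inside 1.5-fold. Counts in the gene lists are read against these shares. The largest list median of any of the 25 lists was 0.07 in size, and 0 members of any list were called.

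Germ cell lists lay close to 0. None of 17 spermatogonial genes and none of 11 genes of the piRNA pathway and germ granule had an unadjusted p under 0.05, and the intervals of all genes of both lists, which share Ddx4, stayed inside 1.5-fold. Of 31 genes of meiosis and spermatocytes, 0 were higher and 3 lower at that level, and the list median was -0.04. The 3 were Hormad1, Hspa2 and Sycn (-0.16 ± 0.07), and Sycn encodes syncollin, a protein of secretory granules, not of meiosis. Hormad1, which marks unsynapsed chromosome axes, differed by -0.28 ± 0.13 and was at 1.15 on dom 03, where the next dom array was at 0.18. Of 46 genes of spermatids and sperm structure 4 were higher and 1 lower (median -0.01). Ropn1, a protein of the sperm fibrous sheath, ran from -0.19 to 0.0155 in dom and from 0.0196 to 0.67 in mus without overlap (0.27 ± 0.09, adjusted p = 0.733). Cylc2, a protein of the sperm head cytoskeleton, ran the other way (-0.25 ± 0.10).

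The protamine and transition protein genes had wide intervals. Prm2, a protamine that replaces histones in the sperm head, was at -0.97 on dom 03 and -1.21 on dom 06 and at -0.16 to 0.21 on mus arrays (0.47 ± 0.23; interval 0.00453 to 0.941). Prm1, its partner, differed by -0.11 ± 0.16, Tnp1 by 0.00 ± 0.23 and Tnp2 by -0.04 ± 0.19. Tnp1 ran from -0.52 to 0.58 among dom arrays and from -0.31 to 0.70 among mus arrays, so animals of 1 sub-species differed among themselves by more than the sub-species did.

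Of 27 genes of sperm-egg interaction, 3 were higher and 0 lower in mus at an unadjusted p under 0.05, and 20 of 27 differences were above 0 (50.3% of all genes were), with a median of 0.05 against 0.00 for all genes. Other lists leaned the other way, with 10 of 31 above 0 for meiosis, 6 of 20 for the candidates of X inactivation and hybrid sterility, 7 of 22 for immediate early genes and 52 of 137 for olfactory receptors. The 3 higher sperm-egg genes were Adam1a, a sperm membrane protein of the ADAM family (0.22 ± 0.07, adjusted p = 0.705), Zp3r, an acrosomal protein (0.20 ± 0.09), and Cd46, a complement regulator on the inner acrosomal membrane (0.19 ± 0.09). List medians by array lay between -0.11 and 0.02 in dom and between -0.04 and 0.05 in mus, so they overlapped. All 27 intervals were inside 1.5-fold.

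Of 31 germline genes of the sex chromosomes 1 was higher and 3 were lower at that level, with a list median of 0.01. Zfy1, a Y-linked zinc finger transcription factor of meiosis and sperm formation, had a dom median of 0.26 (-0.03 to 0.61) and a mus median of -0.22 (-0.40 to 0.18), a difference of -0.42 ± 0.14 (adjusted p = 0.737). Its close copy Zfy2 differed by -0.37 ± 0.16, and the signal of a probe of either may include both. Usp26, an X-linked ubiquitin protease of germ cells, lay between -0.16 and 0.16 on dom arrays and was split among mus arrays, at -0.77, -0.56, -0.81 and -0.47 on mus 02, 04, 07 and 08 and at 0.02 and 0.12 on mus 03 and 05 (-0.39 ± 0.13). Tsga8, an X-linked spermatid gene, differed by 0.28 ± 0.11 and was lowest on dom 03 (-0.82). The multicopy Y genes Ssty1 and Ssty2, expressed in spermatids, differed by -0.02 ± 0.11 and 0.01 ± 0.14.

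By chromosome, 36 of 470 X-linked genes (7.66%) had an unadjusted p under 0.05, 20 higher and 16 lower, against 6.63% of autosomal genes, with autosomes between 4.95% and 9.36%. The X median was 0.00, 94.3% of X-linked intervals were inside 1.5-fold, and the figure for autosomes was 95.3%. Of 13 Y-linked genes 3 had an unadjusted p under 0.05. Candidate genes of X inactivation and hybrid male sterility numbered 20, and 0 of them had an unadjusted p under 0.05. All 20 intervals were inside 1.5-fold. The t-complex genes Tcte3 and Tcp1 differed by -0.28 ± 0.14 and -0.15 ± 0.13, the axonemal dynein Dnah8 by -0.01 ± 0.05 over its probes and the X-linked translation regulator Fmr1 by -0.01 ± 0.06.

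Somatic and immune genes gave few differences. Of 20 genes of macrophages and lymphocytes 2 were higher and 1 lower at an unadjusted p under 0.05. Cd3g and Cd3e, chains of the T cell receptor complex, differed in opposite directions, with 0.29 ± 0.08 and -0.43 ± 0.17. Of 63 genes of the interferon response and antigen presentation 1 was higher and 3 lower, the antiviral genes Oas1a (-0.42 ± 0.16) and Mx1 (-0.35 ± 0.15) among the latter. Of 18 epididymal genes 1 was lower: Gpx5, a peroxidase secreted by the epididymis, was at 1.06 on dom 01 and 0.89 on dom 06 and between -0.01 and 0.29 on the other dom arrays, while mus arrays ran from 0.00 to 0.13 (-0.37 ± 0.13). Adam7, also epididymal, was at 4.94 on mus 07, from a single spot, and between -0.16 and 0.05 on the other mus arrays, and its second probe differed by 0.01 ± 0.06.

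Among lists of general cell function, heat shock proteins and chaperones had 1 of 68 higher and 5 lower, led by Hspa1a and by Dnajb5, an Hsp40 co-chaperone (-0.39 ± 0.10, adjusted p = 0.678), with a list median of -0.01. Glycolysis had 1 of 24 higher and 3 lower. The 3 were Pdha2, the testis form of a pyruvate dehydrogenase subunit (-0.17 ± 0.06), the enolase Eno2 (-0.29 ± 0.10) and the mutase Pgam1 (-0.16 ± 0.06). Olfactory and vomeronasal receptor genes had 4 of 137 higher and 8 lower, with Olfr47 at -0.56 ± 0.16. Ribosomal protein genes had 1 of 64 higher, the Rpl41 of the shared profile above, and 3 lower. Oxidative phosphorylation had 2 of 79 higher and 1 lower, splicing 3 and 2 of 63, and the proteasome 3 and 3 of 48. Of 201 C2H2 zinc finger genes 4 were higher and 7 lower, with the smallest p at Zfp46 (-0.26 ± 0.09).

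The remaining lists had at most 1 member in each direction at that level: Sertoli cells 1 and 1 of 25, Leydig cells and steroid synthesis 1 and 0 of 19, blood 1 and 0 of 9 (Car2, a carbonic anhydrase, 0.27 ± 0.11, without overlap), conjugation enzymes 1 and 1 of 41, immediate early genes 1 and 1 of 22, and 0 of 23 genes of peritubular cells and vessels and 0 of 17 of cholesterol synthesis. The widest interval of the Leydig and immediate early lists was that of Nr4a1, a nuclear receptor rapidly induced by stimulation, at 0.91 ± 0.45. It was at 4.08 on mus 08 (4.21 and 3.96 on its 2 spots), at 0.68 on mus 07, whose 2 spots disagreed (-0.278 and 1.65), and between -0.41 and 0.11 on all other arrays.

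**Figure D5:**
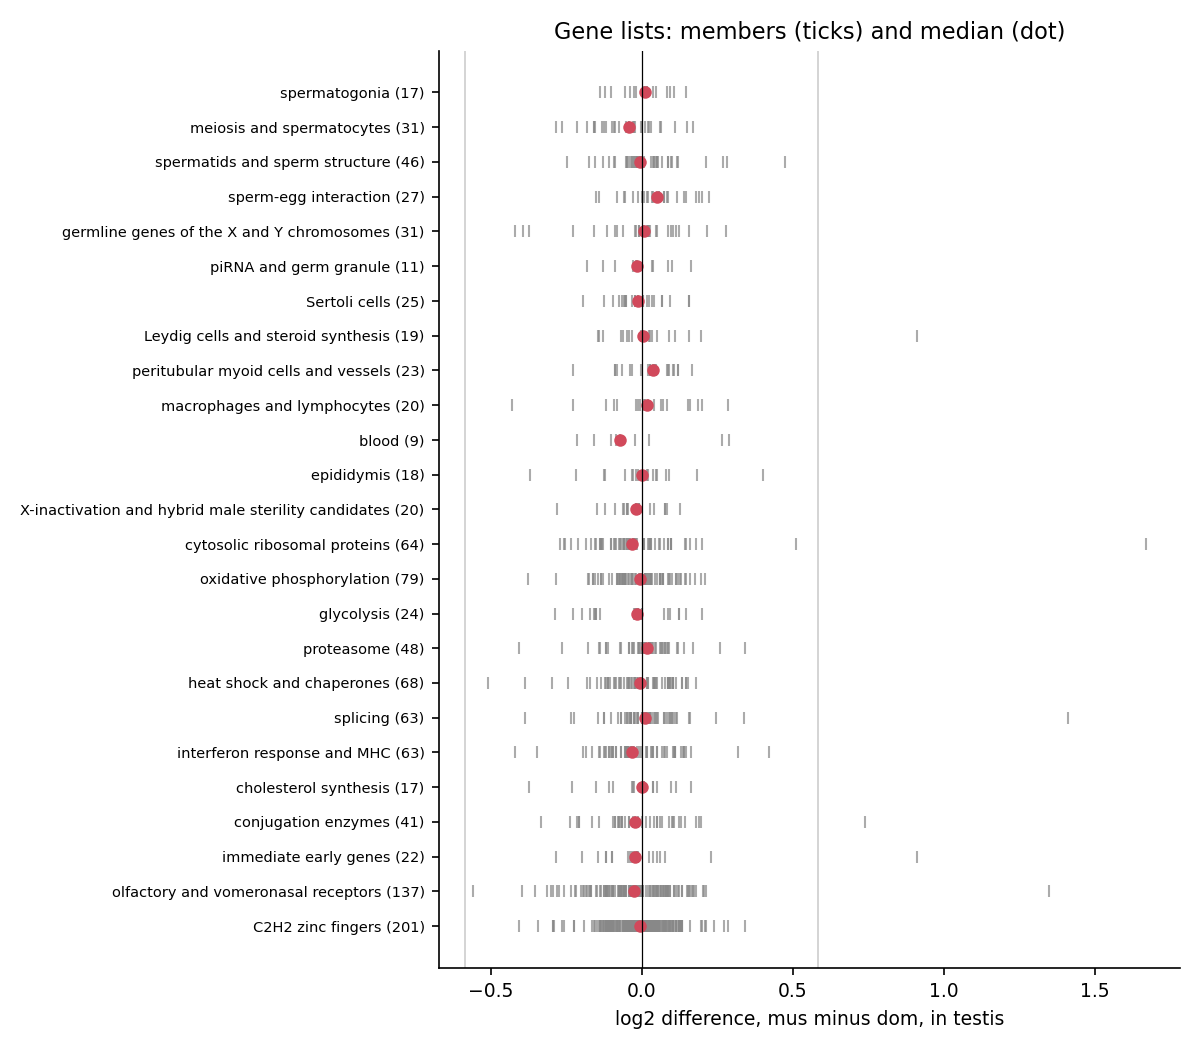
Log2 difference of mus minus dom in testis (horizontal axis) for the members (grey ticks) and the median (red dot) of each gene list, with the number of genes tested in brackets. Grey lines mark 1.5-fold. No median lies further from 0 than the -0.0729 of the blood list, and the ticks past 1 are Rpl41, Snrpc and Olfr948 of the shared profile.

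Over the whole array, the mean squared difference between mus and dom was 0.0168 in testis, a root mean square of 0.13, and the exact permutation test over 924 assignments of the 12 arrays gave p = 0.0996 (one-sided). In brain it was 0.0240 and in liver/kidney 0.0205, each with an exact permutation p = 0.00216, the smallest these assignments can give. With the contribution of animal-to-animal spread subtracted, the divergence was 0.00433 ± 0.00678 (jackknife SE over animals) in testis, 0.0122 ± 0.00498 in brain and 0.00988 ± 0.00321 in liver/kidney. The testis estimate was within 1 SE of 0. Whether it is smaller than in the other tissues was not tested. With a common spread for all arrays the testis value was 0.0102 (exact permutation p = 0.0152), without dom 01 it was 0.00906 (exact permutation p = 0.0152) and without dom 03 it was 0.000636 (exact permutation p = 0.342). The variance of the log ratio to the pool that both duplicate spots share was 0.0321 ± 0.0155 (SD, n = 6) in dom and 0.0230 ± 0.0098 in mus, a difference within the spread between arrays (two-sided exact permutation test, p = 0.264).

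The same contrast in the other tissues called 46 of 20621 probes in brain (0.223%) and 122 of 20652 in liver/kidney (0.591%). Of the 46 brain probes, 39 had the same sign in testis, against 55.8% of all probes, and 9 (19.6%) an unadjusted p under 0.05 there, against 6.59% of all probes. Without the brain array of mus 08, whose labels disagree, 16 probes were called in brain (0.0776%), of which 13 had the same sign in testis and 2 an unadjusted p under 0.05 there. Of the 122 liver/kidney probes, 78 had the same sign, against 50.2% of all probes, and 20 (16.4%) an unadjusted p under 0.05, 18 of them with the same sign. The median absolute difference of the 122 was 0.68 in liver/kidney. Turned to the sign in liver/kidney, the median testis difference was 0.06. The 122 were chosen by their test in liver/kidney, so smaller estimates in testis carry no weight. For 102 of 122 the testis interval lay inside 1.5-fold, against 94.9% of all probes. Hmga2 and 1 unnamed probe were called in both brain and liver/kidney. The unnamed probe differed by 0.24 in testis with an unadjusted p of 0.0139.

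Tested directly, in 1 model of all 72 arrays, the testis difference departed from the brain one for 0 of 20589 probes (percent called 0; 1058 with an unadjusted p under 0.05 by limma, 12 called with quantile normalisation, and 0 without the brain array of mus 08) and from the liver/kidney one for 35 (0.17%; 124 with quantile normalisation). For 33 of these 35 the difference was larger in liver/kidney. Gpc6, a glypican of the cell surface, had the largest gap of the named genes. Mus values ran from 0.10 to 1.15 in testis and from 1.52 to 2.94 in liver/kidney, and dom values from -0.13 to 0.18 and from -1.19 to -0.687. The difference was 0.56 ± 0.24 in testis and 3.08 ± 0.38 in liver/kidney, and the gap between tissues -2.53 ± 0.48 (adjusted p = 0.00307). In testis mus 03, 04 and 05 were at 1.03, 1.15 and 0.73 and the other mus arrays at 0.10 to 0.32. A second Gpc6 probe differed by 0.237 ± 0.0964 in testis.

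The glutamate receptor subunit Gria3 differed by 0.16 ± 0.11 in testis and 1.5 ± 0.21 in liver/kidney, a gap of -1.34 ± 0.24 (adjusted p = 0.00133), and Prl7a1, of the prolactin family, by -0.06 ± 0.12 and -0.97 ± 0.14, a gap of 0.91 ± 0.19 (adjusted p = 0.00815). Qsox1 differed in opposite directions, with -0.36 ± 0.08 in testis and 0.51 ± 0.14 in liver/kidney, a gap of -0.87 ± 0.17 (adjusted p = 0.00433). Of genes with large liver/kidney differences, Mtus2 (-1.13 ± 0.24 there) and Hhatl, a membrane-bound acyltransferase homologue (-1.06 ± 0.21 there and -0.54 ± 0.17 in testis), kept their sign in testis, and the gaps between tissues did not pass the test (0.51 ± 0.31, adjusted p = 0.87, and 0.51 ± 0.27, adjusted p = 0.798). Lrrc8d, which forms part of anion channels that respond to cell volume, differed by 1.54 ± 0.25 in liver/kidney and 0.11 ± 0.17 in testis (gap adjusted p = 0.0828).

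Named genes with the largest differences among probes called in brain had smaller estimates in testis. None of these gaps between tissues passed the test. The genes were chosen for their size in brain, so smaller estimates elsewhere carry no weight. Acta1, Rpl41 and Rab3gap1 had larger brain differences (1.61, 1.49 and 1.33) that were not called, and still larger estimates in testis. Hspa5, the chaperone BiP of the endoplasmic reticulum, differed by -0.72 in brain and -0.02 ± 0.16 in testis (0.139 ± 0.0625 on a second probe), Pigc, of GPI anchor synthesis, by -0.63 and -0.10 ± 0.15, and Ccdc82 by 0.65 and 0.02 ± 0.17. Psmg4, a proteasome assembly chaperone, differed by 0.65 in brain and 0.34 ± 0.16 in testis. Dscaml1, a neuronal adhesion molecule, differed by -1.25 in brain and -0.41 ± 0.18 in testis. In testis it was at 1.70 on dom 06 and at no more than 0.41 on the other dom arrays. Without the brain array of mus 08, Hspa5 and Psmg4 stayed called in brain (limma adjusted p = 0.0139 and 0.00951). Pigc, Ccdc82 and Dscaml1 did not (limma adjusted p = 0.0668, 0.0598 and 0.0598).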

How the data were processed

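The authors deposited log ratios, taken here as log2, with a column for each array. How arrays were scanned, background-corrected and normalised is not given in the sources used here. Groups and replicate numbers came from array titles. Adjacent duplicate spots (22320 pairs) were averaged, 1488 single spots dropped, and each array centred on its median. Of 22089 probes, 15801 had 1 symbol in the platform annotation, 294 several and 5994 none. Probes with at least 2 values in each of the 5 testis groups were fitted over all 24 testis arrays with limma 3.58.1 (R 4.3.3), 1 coefficient per group, two-sided, Benjamini-Hochberg adjusted. For lists, probes of a gene were averaged. Tissues were compared in 1 limma model with sub-species and replicate number of the title as a random block. Plots were drawn with matplotlib 3.10.9 (Python 3.11.15), from tables prepared in numpy 2.4.6 and pandas 2.3.3. The fit was tested on simulated data.

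Named genes were the 8 smallest p and 4 largest differences in each direction. To these came the 1 or 2 genes of lowest p in a list (where under 0.05) and up to 4 probes called under each alternative. The 4 largest changes in each direction among probes called in brain and in liver/kidney were also named. The defining markers, Zfy1 and Usp26 were added, and unnamed probes and clone names were passed over. Others (Nr4a1, Klf1, Tsga8, Zfy2, Cd3e, Tcte3, Eno2, Pgam1, Mx1, Cd46, Adam7, Dnah8, Fmr1, Tcp1, Ces2f, Ssty1, Ssty2, Sry, Olfr948) were chosen after their values were seen. The comparison and lists were chosen with earlier results of these data known. Nothing says that samples of a group are independent litters, so p-values measure the spread between these mice. The number of arrays limits the precision.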

Additional observations from a re-analysis of the deposited data

Results flagged for a closer look

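Each of 280 sets of dom or mus arrays behind a reported value was searched for 1 array far from the others by Dixon's gap over range. It found 25 (8.93%). Chance alone gives about 1 in 20 for sets not chosen by their values, but many of these genes were named for extreme values, some after their values were seen, so that share is no yardstick here. Of the 24 in single genes, 6 were on dom 13 and 6 on mus 08. On dom 13 they were Txn1 (-0.123), Pgam1 (0.324), Star (0.348), Prl7a1 (-0.468), Gria3 (-0.372) and Ephx1 (-0.522), and the list median of peritubular cells and vessels (-0.129) stood apart there too. On mus 08 they were Nr4a1 (4.08), Klf1 (1.95), Ropn1 (0.667), Clu (0.282), Ces2f (-0.639) and Rgs16 (-1.54). Klf1 was high on only 1 of its 2 spots (3.86, against 0.0542), while Nr4a1 was high on both.

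On mus 07 Adam7 (4.94), Sycn (-0.262) and Psmd11 (-0.123) stood apart, on dom 03 Hormad1 (1.15), Tsga8 (-0.816) and Spag11a (0.246), and on dom 01 Smarcd2 (0.807) and Ndufa8 (-0.189). The others were Dscaml1 on dom 06 (1.70), Sry on mus 04 (-0.352), Car2 on mus 05 (0.0979) and Atp8a1 on mus 03 (0.363).

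The difference between mus and dom departed from that in liver/kidney for 4 named genes in the limma model of all tissues: Gpc6 (-2.53 ± 0.48), Gria3 (-1.34 ± 0.24), Qsox1 (-0.87 ± 0.17) and Prl7a1 (0.91 ± 0.19), with adjusted p from 0.00133 to 0.00815.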

How the results depend on the processing

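The count of 0 called probes held under no centring, only the dom and mus arrays, array weights, array set as a term, the replicate block, either spot alone, complete probes, no minimum in other groups, a robust prior and gene means. It was 8 with quantile normalisation, 28 with a common spread and 4 in the first set, and 0 to 6 when 1 array was left out, the 6 without dom 13. Probes at an unadjusted p under 0.05 fell to 937 without dom 03 and numbered 2024 without dom 01. The share of intervals inside 1.5-fold was 93.4% with a common spread, 95.8% with array weights, 93.1% in the first set, 92.5% and 92.3% with the first and second spot, 86.3% with the replicate block and 93.1% to 95.8% without 1 array. Chosen after seeing the data, leaving out duplicates differing by over 1 gave 96.4% and leaving out dom 01 and mus 03 together 92.0%, both with 0 calls. The largest list median was 0.0505 to 0.0947. Divergence was 0.0102 with a common spread (exact permutation p = 0.0152) and 0.000636 to 0.00906 without 1 array, the higher without dom 01 (exact permutation p = 0.0152). The difference in shared variance reversed to 0.0238 with a common spread (exact permutation p = 0.00866), a scaling that changes that variance by construction, and was -0.0121 to -0.00383 without 1 array. Probes differing from brain numbered 12 and from liver/kidney 124 with quantile normalisation. Of 3158 gene values under alternatives, 27 gained a call and 12 moved by more than the spread between arrays.

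Replicate numbers 03 and 05 occur in both groups, and the labels do not say that they mark a shared litter, batch or day. Deviations of same-numbered arrays correlated at 0.0985 and -0.0372, and with the replicate block 0 probes were called, with 934 at an unadjusted p under 0.05.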
